A study of Mus musculus with 78 samples.

Results

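Per1, Per2, Per3, Cry1, Cry2 and Ciart encode the main transcriptional repressors of the circadian clock, and their transcripts were measured by RNA sequencing in mouse cerebral arteries. They were taken by gene name from the protein-coding genes of the expression table, 6 of 54532 genes, and all 6 were among the 15707 genes that reached 1 FPKM in 3 or more libraries. FPKM counts fragments in proportion to gene length and library size, so levels can be compared between genes. The 78 libraries came from male wild-type C57Bl6 mice that had fasted intermittently (IF) or fed ad libitum (AL) for 3 months. They then underwent BCAS, bilateral carotid artery stenosis, in which a reduced carotid bore cuts cerebral perfusion, or were sham-operated. BCAS IF had 20 libraries, BCAS AL 19, sham IF 19 and sham AL 20. Each arm was collected on days 1, 7, 14, 21 and 30 after surgery, which made 20 groups of 4 libraries, except for 3 libraries in BCAS AL on day 1 and in sham IF on day 7. Day 7 rests on the group labels alone, since the treatment text left it out. The sources used here did not give the age of the mice, how fasting was scheduled or the hour at which arteries were taken, so levels of clock genes could not be set against the hour.

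The clock is a feedback loop of transcription. ARNTL (BMAL1) and CLOCK, or NPAS2 in its place, bind E-boxes and switch on the Per, Cry and Ciart genes, and the PER, CRY and CIART proteins return to the nucleus and repress ARNTL and CLOCK, so that activator and repressor transcripts peak at different times of day. PAR bZIP factors such as DBP and their opponent NFIL3 act on D-boxes, and REV-ERB and ROR receptors act on Arntl itself. In blood vessels, clocks of smooth muscle and endothelium are known for daily rhythms of vascular tone and blood pressure.

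On GRCm38, Per1 (ENSMUSG00000020893) lies on chromosome 11 at 69095217 to 69109960 on the plus strand. The others lie on minus strands: Per2 (ENSMUSG00000055866) on chromosome 1 at 91415982 to 91459324, Per3 (ENSMUSG00000028957) on chromosome 4 at 151003652 to 151044665, Cry1 (ENSMUSG00000020038) on chromosome 10 at 85131700 to 85185064, Cry2 (ENSMUSG00000068742) on chromosome 2 at 92403646 to 92434043, and Ciart (ENSMUSG00000038550) on chromosome 3 at 95878503 to 95882251. Whether fragments were assigned by strand was not given in the sources used here. Per3 lies within the bounds of Camta1 on the same strand (median 2.21 FPKM). The antisense RNA C920021L13Rik covers Ciart on the opposite strand at a median of 1.04 FPKM and up to 2.26 FPKM, so the lowest Ciart values are uncertain. The antisense transcript over Cry2, D930015M05Rik, had a median of 0 FPKM.

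Promoter sequences are shown because E-boxes and D-boxes are the sites through which the activators and the PAR bZIP factors act on these genes. RefSeq promoters on GRCm38.p6 were matched for 5 of the 6 genes; Per2 is named only. The 250 bases before the start were searched on both strands for the E-box (CACGTG), the E-prime box (CACGTT), the D-box (TTANGTAA), the ROR element (TAGGTCA), the cyclic AMP response element (CRE) core (TGACG) and the heat shock element (GAANNTTC). The stretch before any exon annotated in GENCODE M21 within these 250 bases is printed. For Per1 it is chr11:69098699-69098947 on the plus strand, which lies inside the annotated gene, since that begins at 69095217. On the minus strand the stretches are chr4:151044666-151044915 for Per3, chr10:85185065-85185304 for Cry1, chr2:92434070-92434319 for Cry2 and chr3:95882252-95882478 for Ciart. Capitals mark the motifs:
Per1: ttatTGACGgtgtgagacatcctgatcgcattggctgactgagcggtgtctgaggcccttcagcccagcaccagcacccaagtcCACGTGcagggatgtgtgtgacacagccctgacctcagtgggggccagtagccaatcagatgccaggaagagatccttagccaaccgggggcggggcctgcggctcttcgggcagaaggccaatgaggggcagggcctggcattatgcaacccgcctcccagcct
Per3: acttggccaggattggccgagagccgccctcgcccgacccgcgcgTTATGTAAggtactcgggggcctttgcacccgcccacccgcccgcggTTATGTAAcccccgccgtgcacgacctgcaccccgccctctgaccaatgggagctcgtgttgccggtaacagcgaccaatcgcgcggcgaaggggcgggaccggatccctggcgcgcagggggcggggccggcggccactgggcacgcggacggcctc
Cry1: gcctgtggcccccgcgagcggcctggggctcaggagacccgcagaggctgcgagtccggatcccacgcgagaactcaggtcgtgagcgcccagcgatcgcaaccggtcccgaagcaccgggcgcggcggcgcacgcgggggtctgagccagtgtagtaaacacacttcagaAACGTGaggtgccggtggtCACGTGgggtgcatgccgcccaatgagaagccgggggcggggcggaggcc
Cry2: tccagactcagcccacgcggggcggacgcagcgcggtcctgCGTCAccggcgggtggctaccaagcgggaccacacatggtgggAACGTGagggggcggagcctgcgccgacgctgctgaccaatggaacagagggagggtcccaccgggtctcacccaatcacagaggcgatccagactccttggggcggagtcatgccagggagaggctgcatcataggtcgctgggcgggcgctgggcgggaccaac
Ciart: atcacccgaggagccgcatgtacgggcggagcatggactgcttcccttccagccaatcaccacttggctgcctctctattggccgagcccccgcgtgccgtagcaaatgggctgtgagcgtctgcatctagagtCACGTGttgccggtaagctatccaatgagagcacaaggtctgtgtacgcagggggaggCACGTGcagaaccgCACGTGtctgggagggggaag

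Ciart held 3 E-boxes, at 116, 58 and 44 bases before its start, and 0.0609% of 32851 promoters held at least 3. Per3 held 2 D-boxes, at 205 and 158 bases before its start, and 0.0731% of promoters held at least 2. Per1 and Cry1 each held 1 E-box, as did 6.02% of promoters at least once. Cry1 and Cry2 each held 1 E-prime box, read on the reverse strand (3.85% of promoters). The RefSeq start of Cry2, at 92434069, lies outside the gene bounds in GENCODE M21, so its window counts from a start not annotated there. CRE cores, found in 17.8% of promoters, were present once each in Per1 and Cry2, and once in Cry1 beyond the printed stretch. A second RefSeq start of Per1, at chr11:69099902-69100151, held 1 CRE core and no E-box. ROR elements (2.23% of promoters) and heat shock elements (6.69%) were not among the letters of these windows, and the D-box (2.06%) was there only in Per3. A match is a stretch of letters and not a measured binding site.

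Library depth was 14601572 to 25944175 fragments. Smooth muscle markers summed to 2190 to 8960 FPKM and endothelial markers to 555 to 1171 FPKM. The 10 neuronal markers summed to 17.2 to 40.3 FPKM, with medians from 0.145 FPKM for Rbfox3 to 15.4 FPKM for Stmn2. Oligodendrocyte markers summed to 84.3 to 302 FPKM and astrocyte markers to 82.4 to 175 FPKM. Macrophage and microglia markers summed to 425 to 755 FPKM. Red blood cell markers ranged from 25.8 to 3019 FPKM and pituitary markers from 2.44 to 5642 FPKM. In 3 libraries, sham AL day 7 replicates 2 and 4 and BCAS AL day 1 replicate 2, genes under 300 bases took 0.279% to 0.322% of fragments, against at most 0.106% in the others. In bulk tissue, fewer cells of a type and less RNA per cell cannot be told apart. The values of the repressors rested on 44 to 669 fragments per library for Ciart and on 157 to 619 for Cry1, and on at least 278 for the other 4.

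The repressors differed mainly by diet. Averaged over the 5 days, 5 of the 6 were higher in IF than in AL arteries after sham and all 6 after BCAS, with Per3 and Ciart changed most and Cry1 least. After BCAS the increases on the log2(FPKM + 1) scale were 0.61 for Per1, 1.12 for Per2, 1.28 for Per3, 0.24 for Cry1, 0.53 for Cry2 and 1.20 for Ciart. After sham they were 0.59 for Per1, 0.86 for Per2, 1.05 for Per3, 0.59 for Cry2 and 1.13 for Ciart, and Cry1 did not pass. Of all genes tested, 11.2% were called higher in IF after BCAS and 11.8% after sham, at a Benjamini-Hochberg adjusted p under 0.05 in limma. The median over the 6 repressors was 0.86 after BCAS and 0.73 after sham, against 0.00 and 0.01 over all genes tested.

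**Figure D1:**
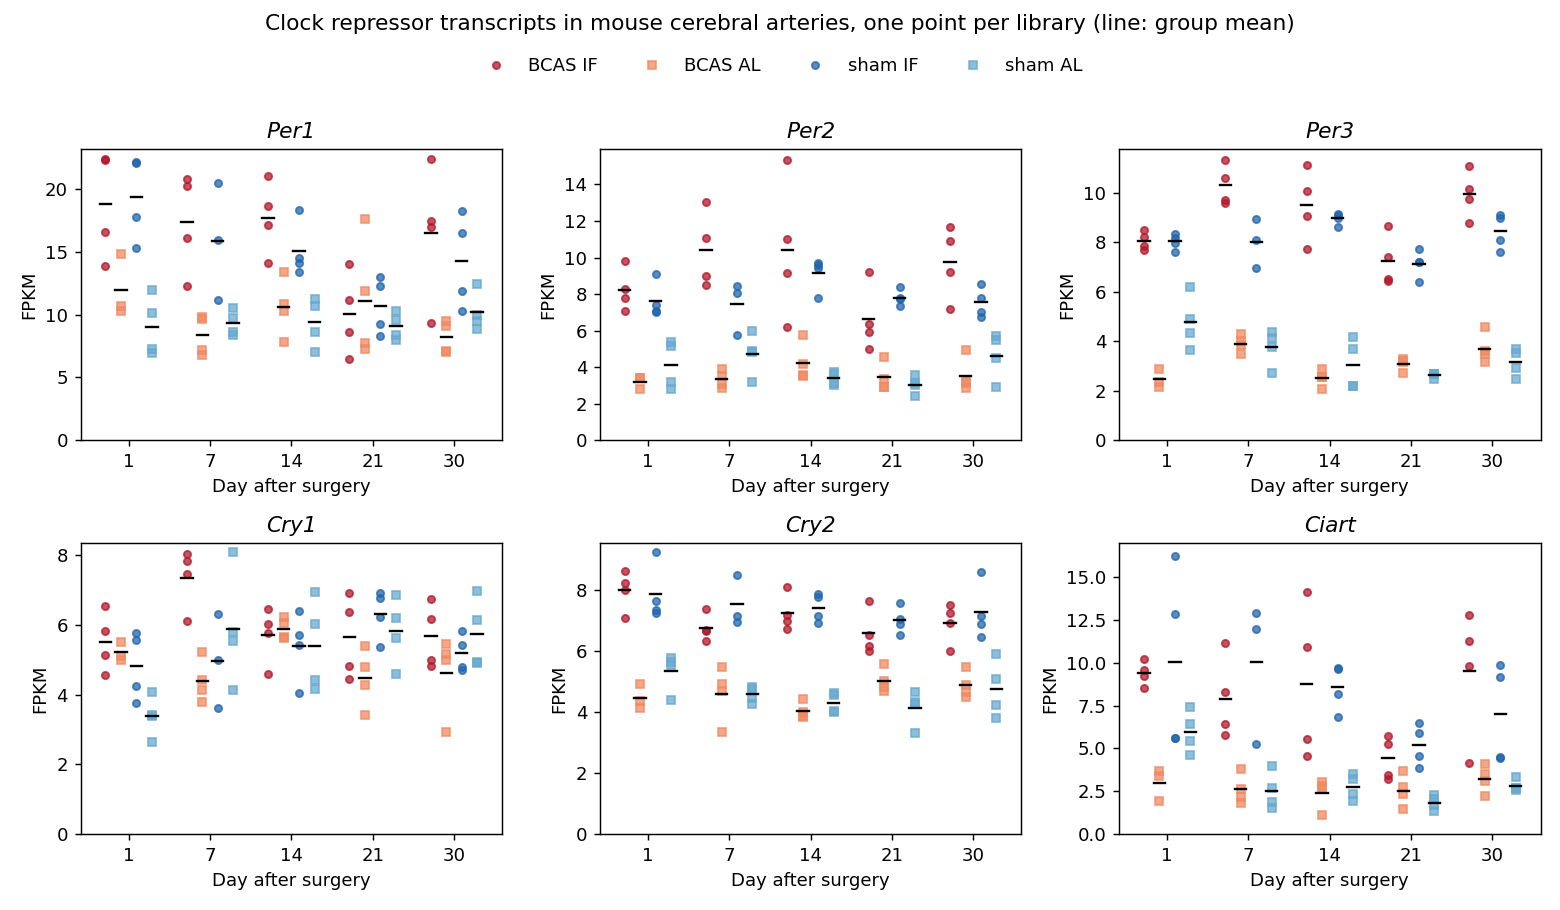
FPKM of each repressor (y axis, from 0) by day after surgery (x axis) in BCAS IF, BCAS AL, sham IF and sham AL; each point is 1 library and each black line a group mean. Points of Per3 and Cry2 from IF arteries stand above those from AL arteries of the same surgery on every day, whereas those of Cry1 mix.

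Per3, the Period paralog that the clock itself can run without in mice, had the smallest adjusted p of the 6 for diet in both surgeries in limma. After sham the log2 difference of Ciart was larger. In BCAS IF the lowest, median and highest values of Per3 were 6.43, 8.94 and 11.3 FPKM, against 2.07, 3.17 and 4.57 FPKM in BCAS AL. In sham IF they were 6.38, 8.10 and 9.16 FPKM, against 2.18, 3.58 and 6.20 FPKM in sham AL. No AL library reached the lowest IF library, over all days and both surgeries. The share of all genes that separated in this way was not computed. Compared within each day alone, every IF library was above every AL library on all 5 days for 0.153% of genes after BCAS and 0.102% after sham. The difference of Per3 was 1.28 ± 0.05 (SE, adjusted p = 4.57e-29) after BCAS and 1.05 ± 0.05 (adjusted p = 1.83e-24) after sham. It passed on each of the 5 days in both surgeries, by 1.39, 1.20, 1.57, 1.00 and 1.22 on days 1, 7, 14, 21 and 30 after BCAS and by 0.66, 0.93, 1.33, 1.16 and 1.19 after sham.

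Per2, the core Period gene whose loss shortens and then abolishes rhythms in mice, was also higher in IF, by less on the log2 scale than Per3 and Ciart. Its lowest, median and highest values were 4.99, 9.09 and 15.3 FPKM in BCAS IF, against 2.83, 3.40 and 5.79 FPKM in BCAS AL. Sham IF libraries had 5.76, 7.79 and 9.70 FPKM, against 2.43, 3.59 and 5.98 FPKM in sham AL. After BCAS the libraries of both diets did not overlap on any of the 5 days, and after sham they overlapped on day 7 alone. By day, 8.53% to 18.2% of all genes did not overlap after BCAS, and 5.67% to 12.1% after sham. The increase was 1.12 ± 0.08 (adjusted p = 1.87e-17) after BCAS and 0.86 ± 0.08 (adjusted p = 9.27e-13) after sham. It passed on all 5 days after BCAS, by 0.77 to 1.38, and on 4 days after sham, where day 7 gave 0.57 ± 0.19 (adjusted p = 0.0503).

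Per1, the Period gene that responds quickly to cyclic AMP and glucocorticoid signals, was the most abundant repressor, with a median of 11.2 FPKM over all libraries. Its lowest, median and highest values were 6.46, 16.7 and 22.4 FPKM in BCAS IF, against 6.80, 9.68 and 17.6 FPKM in BCAS AL. In sham IF they were 8.28, 14.5 and 22.2 FPKM, against 6.93, 9.53 and 12.5 FPKM in sham AL. The ranges overlapped in both surgeries. The increase was 0.61 ± 0.10 (adjusted p = 2.88e-06) after BCAS and 0.59 ± 0.10 (adjusted p = 5.76e-06) after sham. By day it passed on days 7, 14 and 30 after BCAS (0.96, 0.70 and 0.88) and on day 1 after sham (1.03 ± 0.22, adjusted p = 0.00316).

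Per1 had its smallest IF difference on day 21 after both surgeries. Its values there were 6.46, 11.1, 8.61 and 14.0 FPKM in BCAS IF, against 7.75, 11.9, 7.23 and 17.6 FPKM in BCAS AL, and the difference was -0.10 ± 0.22 (adjusted p = 0.900). In sham IF they were 8.28, 12.3, 13.0 and 9.27 FPKM, against 10.3, 7.99, 8.37 and 9.61 FPKM in sham AL, a difference of 0.20 ± 0.22 (adjusted p = 0.806). The groups overlapped in both surgeries. A low day 21 was not particular to Per1. Within BCAS IF, group means of Per2 (6.63 FPKM), Per3 (7.24), Cry2 (6.59) and Ciart (4.44) were also lowest on day 21, unlike that of Cry1. Within sham IF the same held for Per3, Cry2 and Ciart but not for Per2 or Cry1. Whether the IF effect on Per1 differed between days was tested by an F test and did not pass (adjusted p = 0.415 after BCAS and 0.409 after sham).

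Cry2, the cryptochrome whose loss lengthens the period in mice, moved less than Per3 but with little spread. Its lowest, median and highest values were 6.01, 7.05 and 8.65 FPKM in BCAS IF, against 3.35, 4.69 and 5.58 FPKM in BCAS AL. Values in sham IF were 6.48, 7.17 and 9.27 FPKM, against 3.31, 4.53 and 5.90 FPKM in sham AL. Within each surgery no AL library reached the lowest IF library, and the share of all genes that separated so was not computed. The increase was 0.53 ± 0.04 (adjusted p = 1.47e-15) after BCAS and 0.59 ± 0.04 (adjusted p = 3.65e-17) after sham. It passed on all 5 days after sham, by 0.49 to 0.67, and on 4 days after BCAS, by 0.43 to 0.71. Day 21 after BCAS gave 0.33 ± 0.09 (adjusted p = 0.0749); its libraries did not overlap, as in 8.73% of all genes.

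Cry1, the stronger repressor of the cryptochrome pair and the one whose loss shortens the period in mice, hardly separated the diets. Its lowest, median and highest values were 4.46, 6.07 and 8.03 FPKM in BCAS IF, against 2.94, 5.12 and 6.24 FPKM in BCAS AL. Sham IF libraries had 3.63, 5.43 and 6.93 FPKM, against 2.65, 5.25 and 8.09 FPKM in sham AL. The ranges overlapped widely. After BCAS the increase was 0.24 ± 0.07 (adjusted p = 0.00899), and after sham the difference was 0.04 ± 0.07 (95% interval -0.09 to 0.18, adjusted p = 0.706). The call after BCAS rested on day 7, which the treatment text left out: without that day the increase was 0.14 and the adjusted p 0.236. On day 7 Cry1 had 7.46, 7.83, 6.12 and 8.03 FPKM in BCAS IF, against 4.12, 4.44, 5.23 and 3.80 FPKM in BCAS AL (0.63 ± 0.15, adjusted p = 0.0111). All 4 BCAS IF libraries were above the BCAS AL libraries on that day, when 8.53% of all genes did not overlap in either direction, and no other day passed after either surgery.

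Ciart (Chrono), a repressor that binds ARNTL directly, had the widest relative range of the 6. Its lowest, median and highest values were 3.25, 8.43 and 14.1 FPKM in BCAS IF, against 1.12, 2.73 and 4.08 FPKM in BCAS AL. In sham IF they were 3.88, 6.81 and 16.2 FPKM, against 1.33, 2.71 and 7.44 FPKM in sham AL. Over all days, some IF libraries lay within the AL range after both surgeries. Compared within each day, the diets did not overlap on 4 days in each surgery, where 5.67% to 18.2% of all genes did not overlap by day. In the median group the SD was 31.2% of the mean, against 8.89% for Cry2. The increase was 1.20 ± 0.13 (adjusted p = 1.38e-10) after BCAS and 1.13 ± 0.13 (adjusted p = 1.13e-09) after sham. It passed on days 1, 7, 14 and 30 after BCAS, by 1.24 to 1.44, and on days 7, 14 and 30 after sham, by 0.99 to 1.61.

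**Figure D2:**
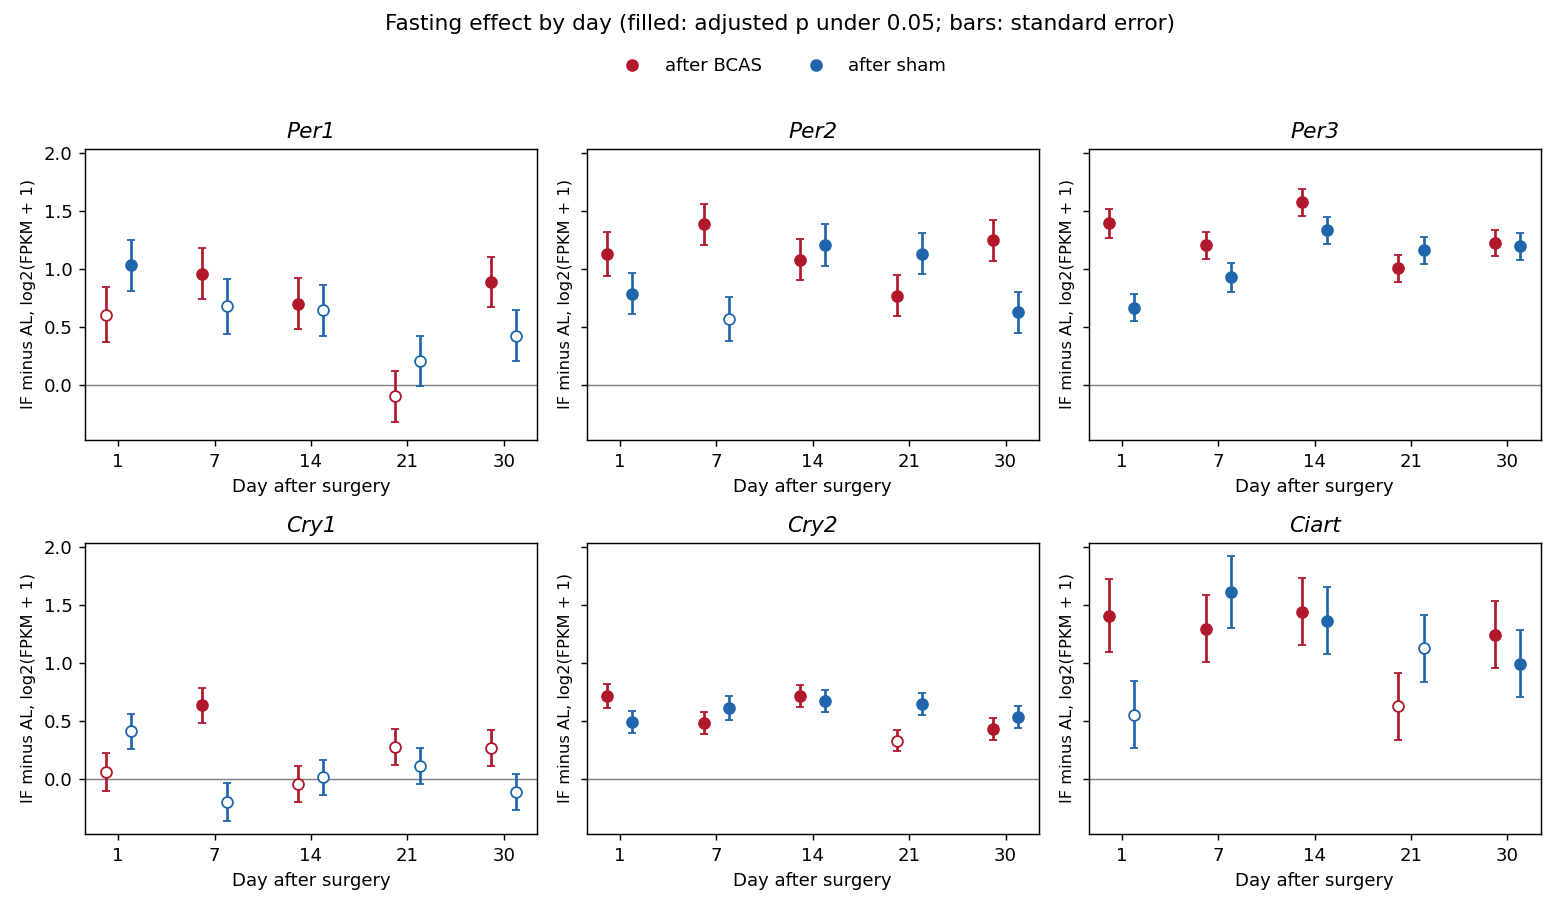
Difference of IF minus AL in log2(FPKM + 1) (y axis) by day after surgery (x axis), after BCAS and after sham; points are estimates, bars are standard errors and filled points have an adjusted p under 0.05. Per3 is filled on all 5 days after both surgeries, between 0.66 and 1.57, and Cry1 only on day 7 after BCAS.

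In single days, 22 of the 30 pairs of repressor and day passed after BCAS and 18 of 30 after sham, all higher in IF. In fits of the compared groups alone 15 passed after BCAS and 9 after sham. Calls lost there after sham were those of Per3 on days 1 and 7 (adjusted p = 0.0842 and 0.241), Cry2 on days 1, 7 and 30 (0.106, 0.241 and 0.0575), Per2 on days 1 and 30, Ciart on days 7 and 30 and Per1 on day 1. After BCAS they were those of Cry2 on days 7 and 30 (0.112 and 0.0675), Per1 on days 14 and 30, Ciart on days 14 and 30 and Per2 on day 21. After BCAS 4, 6, 5, 2 and 5 of the 6 passed on days 1, 7, 14, 21 and 30, where 2.05%, 1.21%, 2.55%, 0.28% and 0.758% of all genes tested were called higher. After sham 4, 3, 4, 3 and 4 passed, where 1.82%, 4.79%, 2.13%, 0.204% and 1.7% of all genes were called higher. On all 5 days every IF library was above every AL library of the same day for Per2, Per3 and Cry2 after BCAS, as for 0.153% of genes tested (24 genes). After sham the same held for Per3 and Cry2, as for 0.102% (16 genes). The IF effect was not shown to differ between days for any of the 6 in either surgery, with 0.0255% of all genes called after BCAS and 0.00637% after sham; at an unadjusted p under 0.05 there were 4 of the 6 after BCAS and 2 after sham, and limma-voom on the recovered fragments also called 0.

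The calls on means over days were stable for Per1, Per2, Per3, Cry2 and Ciart. The call of Cry1 after BCAS was lost without day 7 (0.14, adjusted p = 0.236), and several calls on single days were not stable. The brain tissue score and the red blood cell score, entered as covariates, left Per3 at 1.28 and 1.31 after BCAS and Ciart at 1.19 and 1.18. Among the marker lists, summed neuronal markers ran from 21.1 to 37.6 FPKM in BCAS IF, 20.49 to 38.8 in BCAS AL, 20.05 to 39.3 in sham IF and 17.2 to 40.3 in sham AL. Smooth muscle markers had medians of 5806, 6628, 6227 and 6045 FPKM in the same order. After BCAS, Per1 on day 14 lost its call without replicate 2, 3 or 4 of either diet (adjusted p 0.0671 to 0.163). The same call was lost with no filter on low values (0.0903) and with the red blood cell score as a covariate (0.0676). On day 30 Per1 lost its call without BCAS IF replicate 2, 3 or 4 or BCAS AL replicate 2 or 4 (0.0682 to 0.109). Per2 on day 21 after BCAS lost its call without BCAS IF replicates 2 or 4 or BCAS AL replicates 2 or 3 (0.0520 to 0.101). Ciart after BCAS lost its call on day 1 without BCAS AL replicate 3 (1.19, adjusted p = 0.0657) and on day 30 without BCAS IF replicate 3 or BCAS AL replicate 2 (0.0858 and 0.0740).

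After sham, Per2 lost its call on day 1 without sham AL replicate 1 (0.70, adjusted p = 0.0576) and on day 30 without sham IF replicates 1, 2 or 3 or sham AL replicate 2 (0.0507 to 0.164). Ciart on day 30 lost its call without sham IF replicates 1 or 3 or sham AL replicates 1, 2 or 4 (0.0611 to 0.142). That call was also lost in limma-voom (0.0994) and with no filter on low values (0.0692). With no filter Per2 on day 30 was lost as well (0.0604). On day 7 Ciart lost its call without the libraries rich in short genes (1.27, adjusted p = 0.0572). Calls were also gained on day 7 after sham, by Per1 without sham IF replicate 1 or sham AL replicate 1 (adjusted p = 0.0139 and 0.0384) and by Per2 without sham AL replicate 1 (0.0178). Per1 and Per2 also passed on that day with the brain tissue score (0.0487 and 0.0484), and Per2 with the red blood cell score (0.0478) or quantile normalization (0.0402). Ciart on day 21 after sham passed with array quality weights, in the compared groups alone and with a pseudocount of 0.1 (0.0292, 0.0426 and 0.0296), and array quality weights also gave calls of Per1 on day 14 (0.0496) and Cry1 on day 1 (0.0499) after sham.

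Genes of other clock lists also differed with fasting. These lists were chosen with earlier results of these data known, so their counts are a description and no independent result. Of all genes tested, 3623 of 15707 passed after BCAS and 3719 after sham, in either direction. Of the 4 clock activators, 3 fell after BCAS: Arntl, the partner of CLOCK (-1.29 ± 0.07, adjusted p = 3.08e-24), Npas2 (-1.11 ± 0.07) and Clock (-0.32 ± 0.04). After sham the same 3 fell, Arntl by 1.06 ± 0.07 (adjusted p = 5.96e-20), and Arntl2 rose by 0.12 ± 0.05 (adjusted p = 0.0446). Arntl averaged 1.11 ± 0.48 FPKM in BCAS IF and 4.07 ± 0.68 FPKM in BCAS AL (SD, n = 20 and 19), and 1.37 ± 0.37 FPKM in sham IF and 3.92 ± 0.90 FPKM in sham AL (SD, n = 19 and 20). All 78 libraries separated by diet for this gene, with at most 2.03 FPKM in IF and at least 2.06 FPKM in AL. How many of all genes separated so was not computed.

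All 3 PAR bZIP factors of the list and Nfil3 passed in both surgeries. Dbp, which activates D-boxes, rose by 1.96 ± 0.12 (adjusted p = 6.04e-21) after BCAS and 1.89 ± 0.12 (4.04e-20) after sham. Nfil3, which represses them, fell by 1.64 ± 0.08 after BCAS and by 1.58 ± 0.08 after sham, while Tef rose by 1.13 ± 0.05 and 0.93 ± 0.05 and Hlf by 0.21 ± 0.05 and 0.14 ± 0.05. The REV-ERB genes Nr1d2 (0.87 ± 0.06) and Nr1d1 (0.39 ± 0.12, adjusted p = 0.0082) rose after BCAS. After sham Nr1d2 (0.83 ± 0.06) and Nr1d1 (0.71 ± 0.12, adjusted p = 3.6e-06) rose and Rora fell (-0.10 ± 0.03). Of the other E-box repressors, Bhlhe41 rose by 0.44 ± 0.05 in both surgeries, and Bhlhe40 passed after sham (0.17 ± 0.06, adjusted p = 0.021). The 9 clock-controlled output genes, a list chosen with earlier results of these data known, all passed in both surgeries, 7 higher and 2 lower. Tspan4 (1.13 after BCAS and 0.98 after sham), the cell cycle kinase gene Wee1 (0.64 and 0.47) and Usp2 (0.77 and 0.66) rose. Leo1 fell (-0.60 and -0.58).

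The genes that act on PER and CRY proteins stayed closer to 0. Of 8 kinases and phosphatases, 0 passed after sham in limma, with 1 at an unadjusted p under 0.05 (Csnk2a2, adjusted p = 0.0511; no other tool was run on the list), and Csnk2a2 alone fell after BCAS (-0.09 ± 0.03, adjusted p = 0.0111). Of 8 ubiquitin ligases and stability factors, Usp2, a deubiquitinase also counted among the output genes, passed in both surgeries, and Fbxw11 fell after BCAS (-0.13 ± 0.03). Of 7 partners of the repressor complex, Sfpq (-0.36 after BCAS and -0.28 after sham) and Timeless (-0.13 and -0.12) fell in both surgeries and Wdr5 after sham (-0.17 ± 0.04). Among inputs to Per1, 4 of 9 CREB-responsive genes passed in both surgeries: Sik1 rose (0.47 and 0.36), and Gem (-0.78 and -0.71), Crem (-0.38 and -0.46) and Nr4a2 (-0.42 and -0.41) fell. Of 9 glucocorticoid-responsive genes, 3 rose after BCAS (Tsc22d3 by 0.36, Fkbp5 by 0.45 and Sgk1 by 0.27) and 2 after sham (Pdk4 by 0.30 and Tsc22d3 by 0.25), and Errfi1 fell in both (-0.37 and -0.38). Over all genes, 3623 of 15707 passed after BCAS and 3719 after sham.

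**Figure D3:**
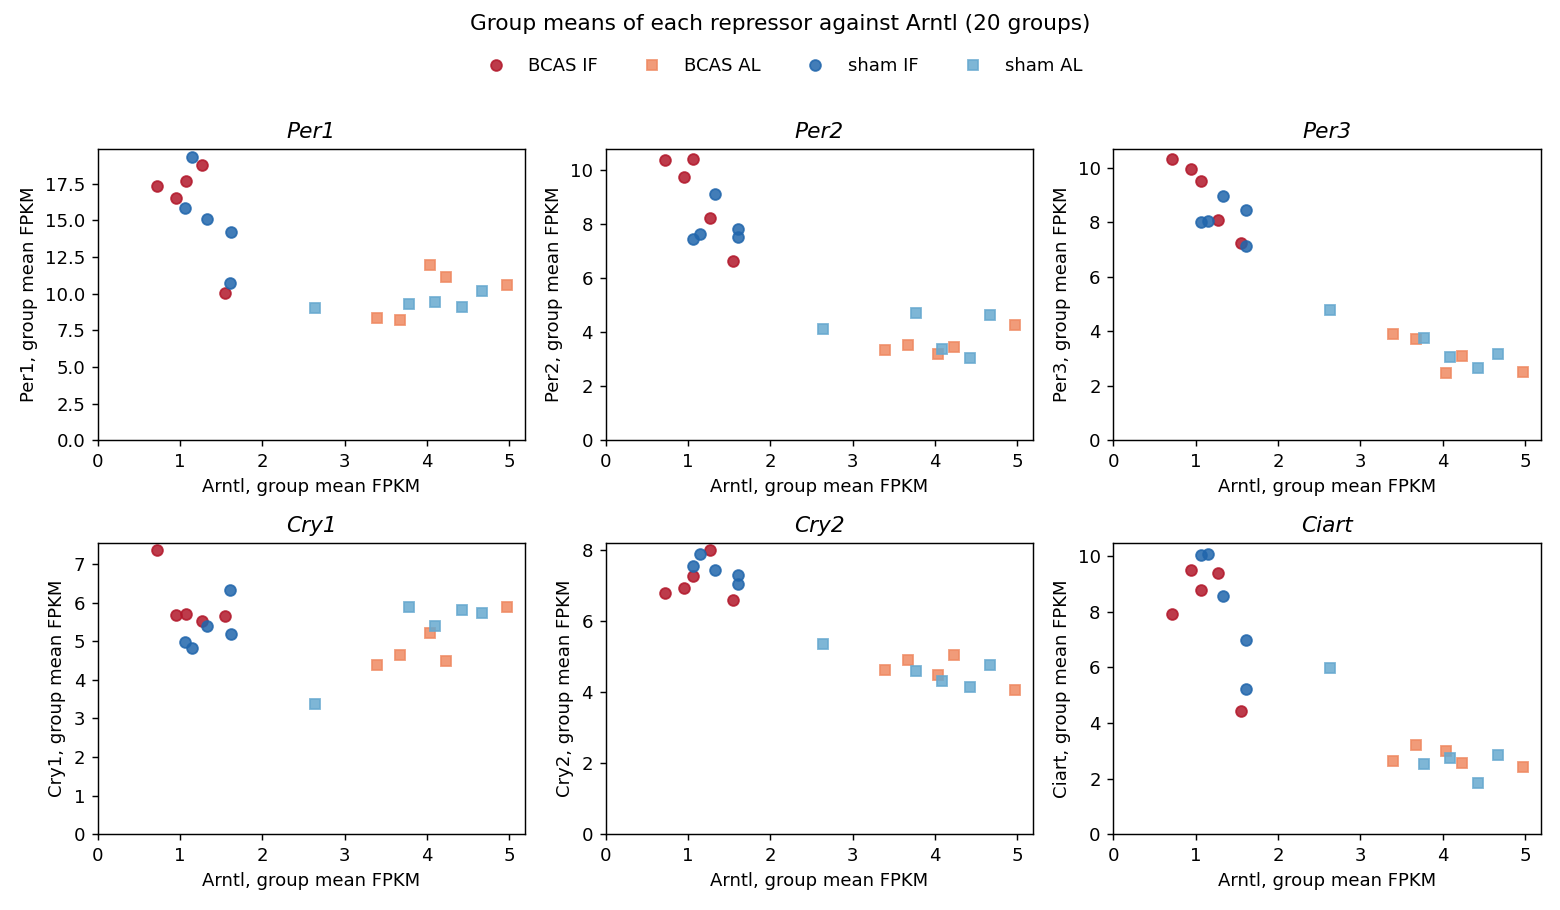
Group mean FPKM of each repressor (y axis) against that of Arntl (x axis) for the 20 groups of surgery, diet and day; each point is 1 group of 3 or 4 libraries. The 10 IF groups lie at 0.716 to 1.61 FPKM of Arntl and the 10 AL groups at 2.64 to 4.98, with Per3 at 7.13 to 10.3 FPKM in IF and 2.46 to 4.78 FPKM in AL.

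Ordered by group mean, the diets separated completely for Per2, Per3 and Cry2. Per3 had group means of 7.13 to 10.3 FPKM in the 10 IF groups and 2.46 to 4.78 FPKM in the 10 AL groups. Per2 had 6.63 to 10.4 FPKM in IF and 3.05 to 4.73 FPKM in AL, and Cry2 6.59 to 7.999 FPKM in IF and 4.04 to 5.34 FPKM in AL. Group means of the other genes crossed between diets, at 10.1 to 19.3 FPKM in IF and 8.18 to 11.9 FPKM in AL for Per1, 4.44 to 10.1 in IF and 1.83 to 5.97 in AL for Ciart, and 4.84 to 7.36 in IF and 3.38 to 5.90 in AL for Cry1. Neighbours in these orders were hard to tell apart: libraries overlapped in all 19 neighbouring pairs of groups for Per1, Per2, Cry1 and Ciart and in 18 of 19 for Per3 and Cry2.

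Carotid stenosis left the repressors close to sham. As the mean over days, 0 of 6 passed in limma under IF, where 0.758% of all genes were called, and 0 of 6 under AL, where 0.987% were; at an unadjusted p under 0.05 there were 1 under IF (Per3) and 0 under AL, and limma-voom also called 0 in both. Under IF, Per3 averaged 9.01 ± 1.48 FPKM in BCAS and 8.12 ± 0.83 FPKM in sham (SD, n = 20 and 19), a difference of 0.13 ± 0.05 (95% interval 0.02 to 0.23, adjusted p = 0.365). Cry1 differed by 0.14 ± 0.07 (95% interval 0.00 to 0.27, adjusted p = 0.522). The intervals of Per1 (-0.12 to 0.27), Per2 (-0.01 to 0.30), Cry2 (-0.14 to 0.03) and Ciart (-0.28 to 0.23) included 0. Under AL all 6 intervals included 0, and the widest was that of Ciart (-0.36 to 0.16) and the narrowest that of Cry2 (-0.09 to 0.08). Of the neighbouring clock lists, Hlf fell under AL (-0.20 ± 0.05, adjusted p = 0.0364) and the output gene Nampt rose under IF (0.17 ± 0.04, adjusted p = 0.0248). Arntl (-0.18 ± 0.07 under IF and 0.06 ± 0.07 under AL), Nr1d1 (-0.25 ± 0.12 and 0.06 ± 0.12) and Dbp (-0.12 ± 0.12 and -0.19 ± 0.12) did not pass.

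A single pair of repressor and day passed for BCAS, Per3 on day 1 under AL. Its values were 2.37, 2.88 and 2.14 FPKM in BCAS AL, against 3.63, 6.20, 4.92 and 4.35 FPKM in sham AL. All 3 BCAS libraries lay below all 4 sham libraries, on a day when the libraries of both groups did not overlap for 10.6% of all genes tested. The difference was -0.72 ± 0.13 (adjusted p = 0.00341), on a day when 0.153% of all genes were called lower. Without BCAS AL replicate 3 it was -0.66 with an adjusted p of 0.0612, and in a fit of only both compared groups it was -0.72 with an adjusted p of 0.237.

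On day 1 the Per3 mean was 2.46 FPKM in BCAS AL, the lowest of all 20 groups, and 4.78 FPKM in sham AL, the highest of the 10 AL groups. On the other 4 days group means of Per3 in sham AL were 3.76, 3.06, 2.64 and 3.15 FPKM. Sham AL on day 1 also had the lowest Cry1 of all groups (3.38 FPKM), the highest Ciart of the AL groups (5.97 FPKM), the lowest Arntl of the AL groups (2.64 FPKM) and the highest Dbp of the AL groups (24.1 FPKM). Dbp fell in BCAS AL on this day by 1.40 ± 0.28 (adjusted p = 0.0109) and Tef by 0.52 ± 0.13, and the kinase gene Csnk1d rose by 0.28 ± 0.07. Summed red blood cell markers were 374, 1894 and 822 FPKM in BCAS AL on day 1, against 92.4, 28.5, 63.6 and 42.0 FPKM in sham AL; with their score as a covariate the Per3 difference was -0.84 (adjusted p = 0.00258).

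**Figure D4:**
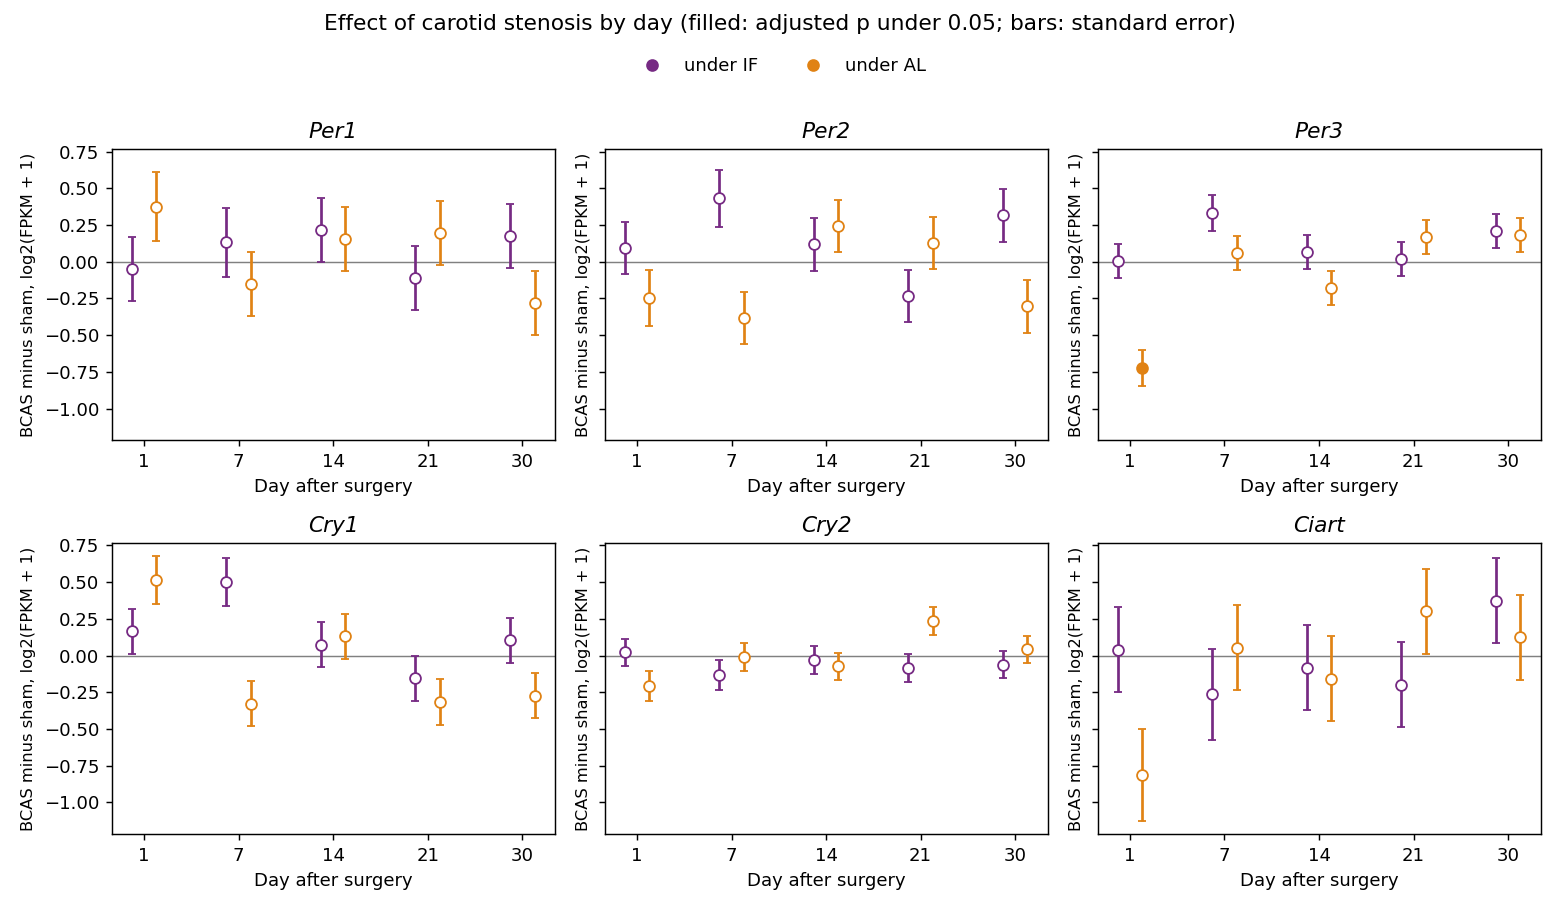
Difference of BCAS minus sham in log2(FPKM + 1) (y axis) by day after surgery (x axis), under IF and under AL; points are estimates, bars are standard errors and filled points have an adjusted p under 0.05. Per3 on day 1 under AL, at -0.72, is the only filled point.

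Cry1 and Ciart also parted on day 1 under AL without passing. Cry1 had 5.12, 5.53 and 5.01 FPKM in BCAS AL, against 4.07, 3.39, 3.43 and 2.65 FPKM in sham AL (0.51 ± 0.17, adjusted p = 0.154). Ciart had 3.70, 3.40 and 1.91 FPKM in BCAS AL, against 4.60, 7.44, 5.42 and 6.43 FPKM in sham AL (-0.81 ± 0.31, adjusted p = 0.259). In both genes the libraries of the groups did not overlap, as in 10.6% of all genes. On days 7, 14, 21 and 30 none of the 6 passed under AL, where 2.63%, 0.337%, 0% and 0.357% of all genes were called; on day 21 limma called 0 genes, with 1028 at an unadjusted p under 0.05, and limma-voom called 467 over the 5 days together. Nr1d2 fell on day 14 under AL (-0.57 ± 0.14) and Nfil3 on day 30 (-0.79 ± 0.18).

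Under IF none of the 30 pairs passed in limma or limma-voom, and 3 had an unadjusted p under 0.05, all on day 7. There Per2 had 13.0, 9.01, 8.48 and 11.05 FPKM in BCAS IF, against 8.47, 8.09 and 5.76 FPKM in sham IF (0.43 ± 0.19, adjusted p = 0.585). The BCAS IF libraries of Per2 all lay above those of sham IF, where 6.58% of all genes did not overlap in either direction. Per3 differed by 0.33 ± 0.13 (adjusted p = 0.442) and Cry1 by 0.50 ± 0.17 (adjusted p = 0.289). Of all genes, 0.00637%, 0.153%, 0%, 0% and 0.0891% were called on the 5 days; on days 14 and 21 limma called 0, with 490 and 899 genes at an unadjusted p under 0.05, and limma-voom called 66 over all days.

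The fasting effect was not shown to depend on surgery. As the mean over days, the difference between the IF effects after BCAS and after sham was 0.23 ± 0.07 for Per3 (unadjusted p = 0.00365, adjusted p = 0.999), 0.26 ± 0.11 for Per2 and 0.19 ± 0.10 for Cry1 (adjusted p = 0.999 for both). None of the 6 passed in limma or limma-voom, and 0.0127% of all genes were called. At an unadjusted p under 0.05 in limma there were 2, Per3 and Per2, and Cry1 was not among them. So the call of Cry1 after BCAS and its absence after sham do not show a difference. The 95% intervals of Per1 (-0.26 to 0.29), Cry2 (-0.17 to 0.06) and Ciart (-0.29 to 0.44) included 0. By day, 0 of 30 passed in limma or limma-voom and 6 had an unadjusted p under 0.05, led by Per3 on day 1 (0.73 ± 0.17, adjusted p = 0.295) and Cry1 on day 7 (0.83 ± 0.23, adjusted p = 0.155). Cry1 on day 7 passed without sham IF replicate 1 (0.99, adjusted p = 0.0253) or sham AL replicate 1 (0.83, adjusted p = 0.0491). Shares of all genes called were 0%, 0.0318%, 0%, 0% and 0% on the 5 days; where limma called 0 genes, 927, 886, 697 and 1016 had an unadjusted p under 0.05 on days 1, 14, 21 and 30, and limma-voom called 12 over all days.

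Time after surgery was tested within each arm. In BCAS IF, Per1 (F = 5.14, adjusted p = 0.0324) and Per3 (F = 5.65, adjusted p = 0.022) differed between days, as did 5.23% of all genes. Group means of Per1 there were 18.8, 17.3, 17.7, 10.1 and 16.5 FPKM on days 1, 7, 14, 21 and 30, and those of Per3 were 8.07, 10.3, 9.50, 7.24 and 9.95 FPKM. Both were lowest on day 21. Without BCAS IF day 21 replicate 1 or 3 neither passed (adjusted p 0.249 and 0.123 for Per1, 0.0818 and 0.0777 for Per3), and Per1 also lost its call without day 1 replicate 1 or 2 (0.0594 and 0.0589). Conversely, Ciart passed without day 30 replicate 1 (0.0418) and Per2 without day 14 replicate 1 or day 21 replicate 2 (0.0301 and 0.0342). In the same arm Arntl (adjusted p = 0.0489), Nr1d1 (0.0467) and glucocorticoid-responsive genes such as Tsc22d3 (0.00445) also differed between days, while Dbp did not pass (0.507).

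In BCAS AL, Per3 alone differed between days (F = 7.49, adjusted p = 0.00473), with group means of 2.46, 3.91, 2.51, 3.09 and 3.71 FPKM; 4.48% of all genes were called. In sham IF 0 of 6 passed in limma or limma-voom, 1 had an unadjusted p under 0.05, and 1.88% of genes were called. In sham AL, Per3 (F = 9.57, adjusted p = 0.000839), Cry1 (F = 6.37, adjusted p = 0.00679) and Ciart (F = 5.63, adjusted p = 0.0114) passed, with 17.3% of all genes called. Day 1 was high for Per3 and Ciart and low for Cry1 in sham AL, and over days 7 to 30 none of the 3 passed (adjusted p = 0.111 for Per3, 0.951 for Cry1 and 0.629 for Ciart). Cry1 also lost its call without sham AL day 1 replicate 4 (0.0567), while Cry2 passed without day 1 replicate 1 (0.0445) and Per2 without day 30 replicate 2 (0.0430).

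The BCAS effect under AL differed between days for Per3 (F = 9.62, adjusted p = 0.00347) and Cry1 (F = 5.32, adjusted p = 0.0497), with 1.97% of all genes called. Other clock lists held calls too: 2 of 4 among the PAR bZIP factors and Nfil3, and 2 of 4 ROR and REV-ERB receptors. Of the output genes, 0 of 9 were called. For Per3 the difference between BCAS and sham was -0.72, 0.06, -0.18, 0.17 and 0.18 on days 1, 7, 14, 21 and 30, and for Cry1 it was 0.51, -0.33, 0.13, -0.32 and -0.27. Both rest on day 1: over days 7 to 30 the adjusted p was 0.478 for Per3 and 0.483 for Cry1. The call of Cry1 was lost when any 1 of 30 of the libraries of these groups was left out (adjusted p 0.0504 to 0.115), and that of Per3 was lost in none of the 39 such fits. Under IF the BCAS effect was not shown to differ between days for any of the 6, none had an unadjusted p under 0.05, and 0% of genes were called; limma and limma-voom both called 0 genes, with 794 at an unadjusted p under 0.05.

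Within groups, some of these genes varied together across libraries. The 21 relations tested were 15 among the repressors and 6 with Arntl. After the group means were removed, 12 of the 21 passed by Pearson's r and 10 by Spearman's rho. The threshold was a p adjusted over the 21 relations under 0.05 (permutation within groups, 78 libraries). Pairs of other genes were not put through this test, so these counts are not shown to be particular to these genes. Per1 and Ciart gave r = 0.61 and rho = 0.60 (permutation p = 1e-05 for both, the smallest the permutations can give, adjusted p = 0.000105 for both), and r = 0.57 without the 2 libraries farthest from the median of Per1. Per3 and Arntl gave r = -0.62 and rho = -0.63 (permutation p = 1e-05 and adjusted p = 0.000105 for both), and r = -0.60 without the 2 farthest. Per2 and Per3 gave r = 0.47 (permutation p = 0.00054, adjusted p = 0.00281) and rho = 0.50 (permutation p = 0.0002, adjusted p = 0.0014), and 0.41 without the 2 farthest.

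Cry1 and Cry2 were both weakly tied to the rest. Cry2 gave r = 0.02 with Per1, 0.15 with Per2, 0.22 with Ciart and -0.18 with Arntl, none of which passed. For Cry1, r within groups was -0.15 with Per1, -0.26 with Per3, -0.14 with Cry2, -0.17 with Ciart and -0.18 with Arntl, and none of these passed. With Per2, Cry1 gave r = 0.32 (permutation p = 0.0155, adjusted p = 0.0309) and rho = 0.28 (0.0316, adjusted p = 0.0603), and 0.28 without the 2 farthest. Cry2 passed with Per3 alone (r = 0.28, permutation p = 0.0228, adjusted p = 0.040; rho = 0.27, adjusted p = 0.0641). Without the 2 libraries farthest on the x axis of each relation 7 of the 21 passed. Nothing in the labels gave a batch or an hour of collection by which these relations could be split.

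**Figure D5:**
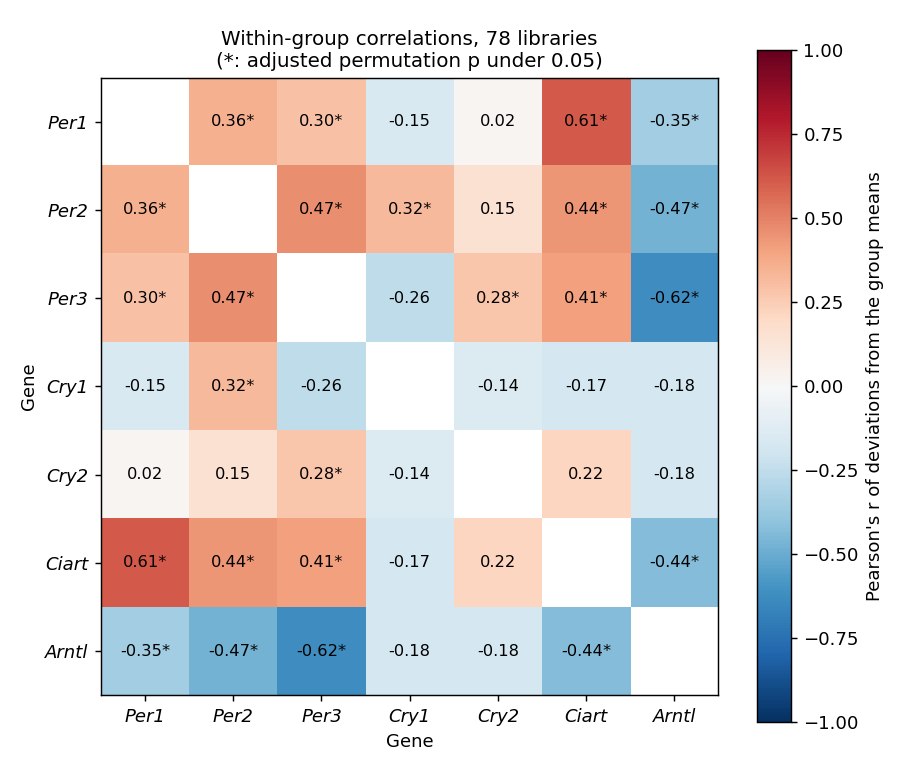
Pearson's r between the repressors and Arntl over 78 libraries after removal of group means (colour and number; both axes list the genes); an asterisk marks an adjusted permutation p under 0.05. Per1 and Ciart (0.61) and Per3 and Arntl (-0.62) give the strongest relations and the rows of Cry1 and Cry2 are pale.

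Over all 78 libraries, with diet included, the genes most like each repressor were described by Pearson's r of log2(FPKM + 1), among non-member protein-coding genes. These libraries share groups, so r is a description of likeness in these samples. Per3 was most like Tef (0.98), Tspan4 (0.95) and Dbp (0.95), and most opposite to Arntl (-0.96). Cry2 followed Tef (0.90), Dbp (0.90) and Tspan4 (0.88), opposite to Nfil3 (-0.88), and Ciart followed Dbp (0.88), Dgat2 (0.88) and Tef (0.86), opposite to Spon2 (-0.89). Per2 was most like Usp2 (0.90), Tef (0.88) and Wee1 (0.88), and most opposite to Npas2 (-0.89). Per1 had other neighbours, Tsc22d3, Tob2 and Sik1 (0.81 each), opposite to Hnrnpc (-0.77); Tsc22d3 is a glucocorticoid-responsive gene and Sik1 a CREB-responsive one. Cry1 had none above 0.52, with Mpp2 (0.52), Dync1li2 (0.49) and Srek1 (0.47) nearest and Cdc25b (-0.52) most opposite.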

How the data were processed

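The 78 libraries were sequenced from cerebral arteries; per the labels' protocols, an RNeasy kit gave the RNA, of which Novogene made libraries from 2 ug each. As deposited, the authors' table holds FPKM values, with the gene length in bases, per the file headers. Per the submitters' processing notes DESeq 1.10.1 belongs to the tools, with no step named; the sources used here did not give the aligner, counter, annotation or build. Positions are on GRCm38, since GENCODE M21 held 54409 of the identifiers, 98.3% of them at identical coordinates. Multiplied by gene length, FPKM values under 1000 fragments fell on whole steps in 100% of cases (tolerance 0.05), which gave depths of 14601572 to 25944175 fragments and the fragment numbers. No 2 libraries were identical. The labels gave no batches, and nothing besides separate titles said that libraries came from separate animals, so p-values measure only the spread between these libraries.

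In R 4.3.3, limma 3.58.1 (with statmod 1.5.0; robust and trended variance) fitted 1 model of 20 group means to log2(FPKM + 1), over genes that reached 1 FPKM in 3 or more libraries. On this scale the fold change of a weakly expressed gene comes out too small. Contrasts were BCAS against sham, IF against AL and their interaction, by day and as the mean of 5 days, with F tests for days. P-values were two-sided, with Benjamini-Hochberg adjustment across 15707 genes in each contrast and a threshold of 0.05. Intervals are 95% intervals of that model, and errors of log2 differences are standard errors. Correlations used deviations from group means and 100000 permutations within groups (numpy 2.4.6). The alternatives were another pseudocount, no filter, other scalings, options and weights, limma-voom on recovered fragments, marker scores as covariates, the compared groups only, days left out, the libraries rich in short genes left out, and each library left out in turn. The steps were tested on simulated data.

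Named genes were all 6 repressors in every comparison, up to 4 genes with the smallest p per other clock or input list among those past the threshold, Arntl, Nr1d1 and Dbp, and the 3 most like and 1 most opposite gene of each repressor. For means over days of IF against AL and of BCAS against sham the rule was applied to each list. It was applied in part for single days of BCAS against sham and for days within BCAS IF. In the interaction, the single days of IF against AL and the other tests of days, no list genes were named. A result that fell under this rule is not reported here. The members and lists were chosen with earlier results of these data known.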

Additional observations from a re-analysis of the deposited data

Results flagged for a closer look

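In groups of 4, a library far from the other 3 was found in 3 of 108 combinations of repressor and group, where chance alone marks about 1 in 20. Per2 in sham IF on day 14 had 7.79 FPKM in replicate 1 and 9.45 to 9.70 FPKM in the others. Per3 in sham AL on day 21 had 2.49 FPKM in replicate 2 and 2.67 to 2.70 FPKM in the others. Cry2 in sham AL on day 1 had 4.39 FPKM in replicate 1 and 5.54 to 5.78 FPKM in the others.

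The BCAS effect under AL differed between days by an F test for Per3 (adjusted p = 0.00347) and Cry1 (adjusted p = 0.0497). Per3 was lower and Cry1 higher in BCAS than in sham on day 1, when red blood cell markers were also higher in BCAS. With their score as a covariate the day 1 difference of Per3 was -0.84 (adjusted p = 0.00258), and the F test of Cry1 no longer passed (F = 4.61, adjusted p = 0.0723). The F test of Cry1 was also lost without this score, with no filter on low values (adjusted p = 0.0976) or with quantile normalization (0.0566). Whether blood content played a part was not tested.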

How the results depend on the processing

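None of the 6822 recomputed values of single repressors reversed a call; 111 lost a call and 24 gained one, and 132 values that passed in neither fit changed sign. The increases of Per1, Per2, Per3, Cry2 and Ciart with IF, as means over days, passed in both surgeries under every alternative run, between 0.49 (Per1 after sham) and 1.54 (Per3 after BCAS).

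Counts of repressors that passed moved as follows, and the cause was not tested. Leaving out single libraries gave 0 to 1 for BCAS under AL by day, 16 to 20 for IF after sham by day, 0 to 3 between days in BCAS IF, 2 to 4 between days in sham AL, 1 to 2 for the day dependence of the BCAS effect under AL, 0 to 1 for that of the IF effect after sham, and 0 to 1 for the interaction by day. With only the compared groups in the fit, BCAS under AL by day had 0 (1 in the fit of all groups), IF after sham by day 9 (18), between days in BCAS IF 1 (2), in sham AL 1 (3), and the day dependence of the BCAS effect under AL 0 (2). Over days 7 to 30 these last 3 were 1, 0 and 0. That day dependence had 1 without a filter, with quantile normalization, without the trend and robust options, in limma-voom, with the red blood cell score and without the libraries rich in short genes. Between days in BCAS IF there was 1 with a pseudocount of 0.1 or without a filter and 4 with array quality weights, which gave 1 in sham IF. Without the 2 farthest libraries 7 of 21 relations passed, against 12.

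No paired analysis was possible because the labels give no replicate numbers shared between groups. The mean interaction uses all groups, so a fit of only the compared groups gives no other value. Ciart and Cry1 rest on the fewest fragments.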
